A study of Mus musculus with 17 samples.

Results

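The genes described here are 10 members of the antioxidant programme that the transcription factor NRF2 controls, out of 38087 genes in the deposited table. They were taken by symbol and all kept whatever their values. The list was drawn up with earlier results of these data known. Nfe2l2, Keap1 and Sqstm1 encode NRF2 and proteins that set its level. Slc7a11, Gclc and Gclm belong to cystine import and glutathione synthesis. Srxn1, Txnrd1 and Prdx1 are of the thioredoxin system, and Nqo1 is a quinone reductase. Each symbol stood on 1 row of the table. RNA was sequenced from cells sorted out of injured tibialis anterior muscle. The mice were DBA/2J males, 3 months old, and the injury was made with cardiotoxin, a component of snake venom that destroys muscle fibres, after which the muscle regenerates. The 17 samples form 6 groups. Neutrophils were taken on day 1, in 2 samples. Ly6C high macrophages were taken on days 1, 2 and 4, and macrophages with low Ly6C on days 2 and 4, with 3 samples in each of these groups. Ly6C is a surface protein that is high on recently arrived inflammatory monocytes and macrophages and low on the macrophages that accompany repair. All animals were injured and no genotype or drug separates the groups. No uninjured muscle enters these comparisons, and the labels do not say whether animals were pooled or whether the samples of a group came from separate animals.

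The table gives a single value for each gene and group, a mean that the authors took over log2 normalised reads, and none for single samples. Nothing here therefore has a standard deviation, a test or a p-value, and the spread between samples is not known. Differences are given as sizes on the log2 scale, where 1 is 2-fold. A gene entered a comparison where it reached a log2 value of 5 in either group, and was counted where the groups were at least 2-fold apart. A gene under 5 in 1 of the groups thus entered only through the group where it was higher, and this holds for all genes alike. All 10 genes reached that level in some group, and 9 of them in a macrophage group; the exception is Nqo1. Total depth per sample cannot be had from the means. A read was worth 0.412 to 1.03 normalised units, so counting error can be put beside a value, and it covers counting only.

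NRF2 is made continuously and destroyed continuously: KEAP1 holds it for a ubiquitin ligase, and oxidants or electrophiles modify KEAP1 so that NRF2 escapes, enters the nucleus and binds antioxidant response elements together with small MAF proteins. Its targets import cystine, make glutathione, keep thioredoxin reduced, detoxify quinones and handle iron and heme. In macrophages the programme limits damage from the oxidants these cells make and restrains inflammatory gene expression, and since NRF2 is regulated mainly as a protein, the mRNA of Nfe2l2 need not follow its activity.

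Promoter stretches of Slc7a11, Srxn1, Prdx1, Gclm and Txnrd1 are shown first. RefSeq windows of 250 bases before to 50 bases after a transcription start were at hand for 9 of the 10 genes (11 windows, GRCm38.p6), and Gclc had no entry. Sequence outside these windows was not searched, and no link between a motif and the levels was tested. The antioxidant response element core TGACNNNGC, searched on both strands, occurred in windows of 5 genes (Nfe2l2, Gclm, Srxn1, Txnrd1 and Prdx1) and in 12.4% of all 32851 windows. The AP-1 element TGACTCA occurred in 2 genes and in 5.20% of windows. The core TGATGNAA, of the kind that C/EBP and ATF proteins such as ATF4 bind as partners, occurred in Slc7a11 alone among the 9 genes and in 3.97% of windows. The last 2 motifs were added to the search after the values had been seen. In the stretches printed below, each 5′ to 3′ on the strand of its gene, capitals mark the matched letters.
Slc7a11 (-120 to -2, chr3:50443615-50443733, minus strand): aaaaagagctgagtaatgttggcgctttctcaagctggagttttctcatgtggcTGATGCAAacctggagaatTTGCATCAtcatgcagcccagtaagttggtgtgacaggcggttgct
Srxn1 (-110 to -31, chr2:152105414-152105493, plus strand): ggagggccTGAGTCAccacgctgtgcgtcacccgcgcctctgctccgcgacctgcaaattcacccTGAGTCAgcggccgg
Prdx1 (-250 to -101, chr4:116685349-116685498, plus strand): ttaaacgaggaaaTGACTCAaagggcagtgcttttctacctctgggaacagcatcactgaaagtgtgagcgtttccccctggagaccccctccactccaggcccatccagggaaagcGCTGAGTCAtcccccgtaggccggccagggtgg
Gclm (-150 to -101, chr3:122245407-122245456, plus strand): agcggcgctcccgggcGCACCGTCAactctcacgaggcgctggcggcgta
Txnrd1 (-110 to -71, chr10:82859096-82859135, plus strand): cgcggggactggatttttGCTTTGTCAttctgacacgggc
Positions count from the RefSeq start. The capitals in Slc7a11 are 2 copies of the C/EBP and ATF core, at -66 to -59 on the gene's strand and at -47 to -40 on the other. Those in Srxn1 are 2 AP-1 elements, at -102 to -96 and -45 to -39, and its response element core lies past the start, at 29 to 37, outside the stretch. In Prdx1 the second block of capitals is a response element core (-133 to -125) that contains an AP-1 element, while the first is an AP-1 element alone. The capitals in Gclm and Txnrd1 are response element cores, the Txnrd1 stretch lying before a second start inside that gene and outside its annotated exons. The other 4 stretches lie outside annotated genes. A match describes letters and is neither a binding site nor a cause.

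Slc7a11 (chr3:49892526-50443614, minus strand) encodes xCT, the transporter that brings in cystine in exchange for glutamate. Its log2 values were 13.91 in neutrophils, 12.41, 10.96 and 10.26 in Ly6C high macrophages on days 1, 2 and 4, and 9.91 and 9.15 in Ly6C low macrophages on days 2 and 4. Neutrophils were highest, each later Ly6C high group was lower than the one before, and on both days Ly6C low lay below Ly6C high. The span of 4.76 is 27.0-fold, and 7.55% of the 13065 genes that reached a log2 value of 5 had a span at least as wide. Over the 5 macrophage groups the span was 3.26, or 9.55-fold, with 8.82% of genes at least as wide. No other gene of the 10 spanned as much as 1 on the log2 scale over the macrophage groups.

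The partner of xCT did not show this profile. Slc3a2, which encodes the heavy chain that carries xCT to the membrane along with other amino acid transporters, was at 11.97 in neutrophils and between 12.72 and 12.99 in the macrophage groups, a span of 0.27 among them.

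Gclc (chr9:77754535-77794485, plus strand) encodes the catalytic subunit of glutamate-cysteine ligase, the rate-limiting enzyme of glutathione synthesis. Neutrophils had 9.81, Ly6C high macrophages 10.20, 10.12 and 9.74 on days 1, 2 and 4, and Ly6C low macrophages 9.80 and 9.21 on days 2 and 4. Each step between days and between subsets had the same direction as in Slc7a11, within a span of 0.99. Gclm (chr3:122245557-122270732, plus strand) encodes the modifier subunit, which raises the enzyme's affinity for glutamate. Its values were 9.47 in neutrophils, 8.68, 8.58 and 9.0 in Ly6C high, and 8.83 and 8.82 in Ly6C low. It was highest in neutrophils and spanned 0.42 among macrophages, a span that 81.1% of genes reached or passed. Per kilobase of exon, Gclc exceeded Gclm by 2.26 on the log2 scale in Ly6C high macrophages on day 1, by 2.29 and 1.48 on days 2 and 4, and by 1.71 and 1.13 in Ly6C low macrophages on days 2 and 4. In neutrophils the gap was 1.08. The catalytic subunit thus stood above the modifier in all 6 groups, by least in neutrophils and in Ly6C low macrophages of day 4. Part of the exon sequence of Gclm, 8.58%, is shared with the genes Gm17494 and Gm6061, and whether counting used strand is not given in the sources used here.

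Srxn1 (chr2:152105516-152111376, plus strand) encodes sulfiredoxin, which rescues overoxidised peroxiredoxins. Its level was 10.96 in neutrophils, 12.08, 11.74 and 11.84 in Ly6C high macrophages on days 1, 2 and 4, and 11.09 and 11.30 in Ly6C low macrophages on days 2 and 4. Every Ly6C high group was above both Ly6C low groups, and neutrophils were lowest. Txnrd1 (chr10:82833951-82897712, plus strand) encodes cytosolic thioredoxin reductase, which passes electrons from NADPH to thioredoxin. Its values were 12.30 in neutrophils, 12.83, 12.52 and 12.65 in Ly6C high, and 12.11 and 12.43 in Ly6C low. It kept the order of Srxn1 among macrophages at a smaller span, 0.72 against 0.99. These 2 genes had the most alike profiles of any pair of the 10, with a root mean square difference of 0.21 over the 6 groups after each was centred on its mean.

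Prdx1 (chr4:116685544-116700822, plus strand) encodes an abundant peroxiredoxin that removes hydrogen peroxide. Neutrophils had 11.73, Ly6C high macrophages 11.67, 11.97 and 11.98 on days 1, 2 and 4, and Ly6C low macrophages 12.21 and 12.04 on days 2 and 4. Day 1 cells of both kinds were lowest. Its span of 0.54 was the narrowest of the 10 over all 6 groups, and 87.3% of genes spanned at least as much.

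Nfe2l2 (chr2:75675513-75704641, minus strand) encodes NRF2 itself. Its mRNA had a value of 13.27 in neutrophils, 12.78, 12.40 and 12.59 in Ly6C high macrophages on days 1, 2 and 4, and 12.08 and 12.50 in Ly6C low macrophages on days 2 and 4. Neutrophils were highest and both day 2 groups lowest among the 6. Keap1 (chr9:21229730-21239361, minus strand), the sensor that holds NRF2 for degradation, had values of 8.06 in neutrophils, 7.50, 7.77 and 8.07 in Ly6C high, and 8.02 and 8.30 in Ly6C low. It was lowest in Ly6C high macrophages on day 1 and highest in Ly6C low macrophages on day 4, 0.80 apart. Sqstm1 (chr11:50199366-50210827, minus strand) encodes p62, an autophagy receptor that binds KEAP1 and takes it away from NRF2. Its values were 13.85 in neutrophils, 13.92, 13.69 and 14.31 in Ly6C high, and 13.76 and 14.42 in Ly6C low. Both day 4 groups were above the other 4. Keap1 shares 10.9% of its exon bases with Gm16754 and Sqstm1 shares 17.3% with Mrnip, each on the other strand.

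Nqo1 (chr8:107388225-107403206, minus strand) encodes a reductase that turns quinones into hydroquinones and is widely used as a readout of NRF2. Neutrophils had 6.42, Ly6C high macrophages 3.13, 2.71 and 3.61 on days 1, 2 and 4, and Ly6C low macrophages 2.94 and 2.81 on days 2 and 4. Neutrophils stood apart from all 5 macrophage groups, the full span being 3.71 or 13.1-fold. In macrophages these levels are 10.2 to 24.5 reads in a library, with a counting error of 0.18 to 0.25 on the log2 scale for each value, so the macrophage groups are described no further for this gene. For the other 9 genes the counting error of a difference was at most 0.09, that of Keap1. Per kilobase of exon, Nqo1 was the lowest of the 10 genes in every group (2.08 to 2.98 among macrophages) and Sqstm1 the highest (11.94 to 12.67).

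**Figure D1:**
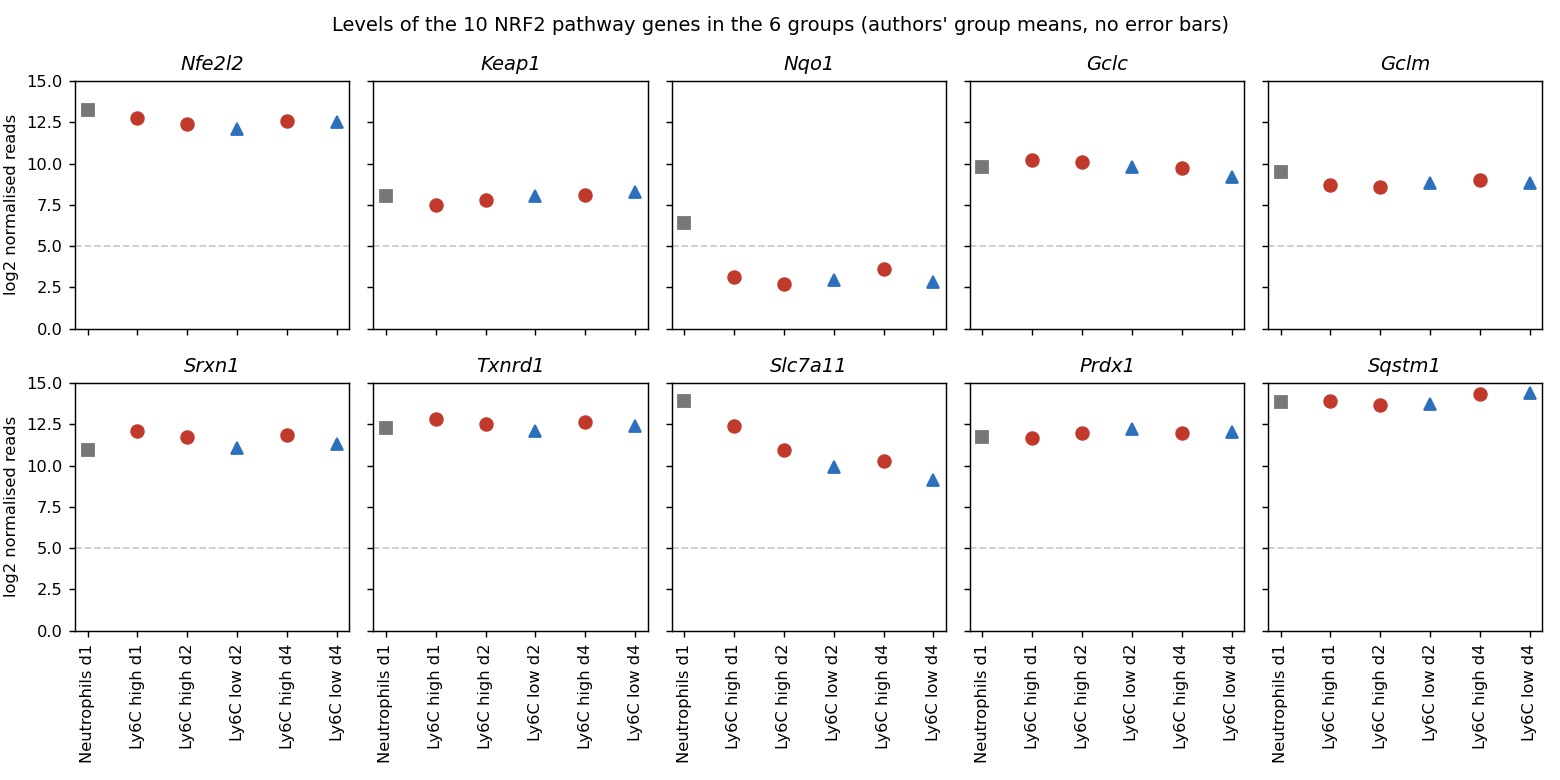
Log2 normalised reads (y axis) of the 10 genes in the 6 groups (x axis; d is the day after injury), each point the authors' group mean: grey squares neutrophils, red circles Ly6C high and blue triangles Ly6C low macrophages; the dashed line is the log2 value of 5 used as a filter. Slc7a11 is highest in neutrophils (13.91) and lowest in Ly6C low macrophages on day 4 (9.15). Nqo1 drops from 6.42 to under 4 in the macrophages, and the other 8 genes span at most 1.19.

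Genes with the profile most like that of a member were sought for the 4 members that spanned at least 1, among 10990 genes and by the root mean square difference of centred profiles over the 6 group means. Closest to Slc7a11 were Sgms2, a sphingomyelin synthase (0.24), Mxd1, a MAX partner that opposes MYC (0.36), and Cxcl2, a neutrophil chemokine (0.38). Closest to Nqo1 were Slc18a2 (0.18), Slc2a3, a glucose transporter (0.23), and Bmx (0.24). Those closest to Srxn1 were Dffb (0.07), Hivep2 (0.08) and Mapkapk3 (0.09), and those closest to Nfe2l2 were Zfp236 and Epc2 (0.05 each) and Myst3 (0.06). With Pearson correlation as the measure, 2 of the 3 genes for Srxn1, 1 of the 3 for Nfe2l2 and 0 for Slc7a11 and for Nqo1 were shared with these.

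**Figure D2:**
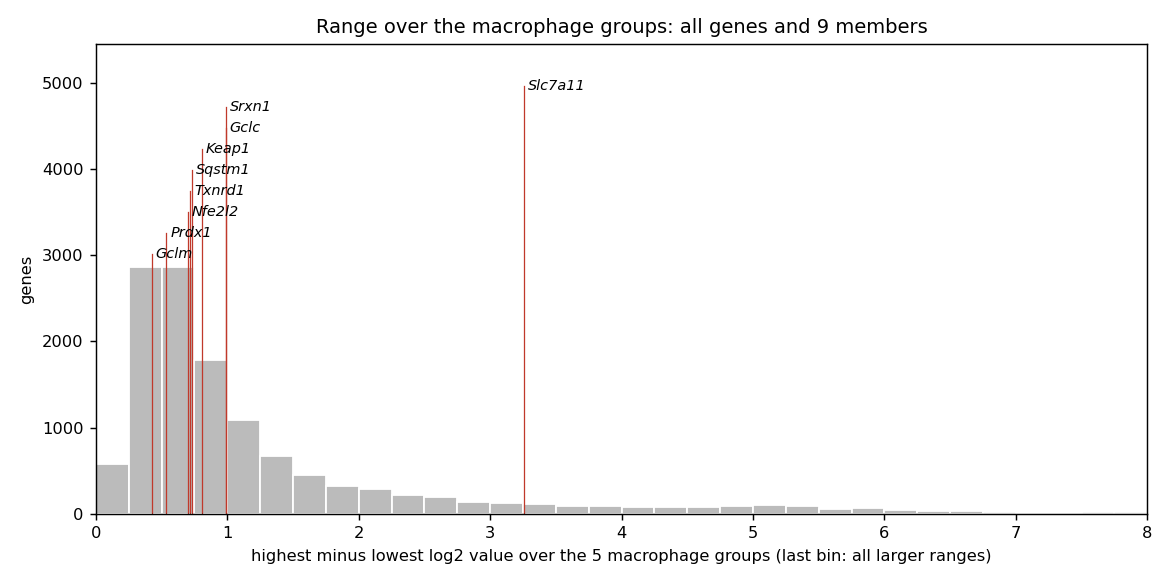
Histogram of the highest minus the lowest log2 value over the 5 macrophage groups (x axis, log2) for the 12689 genes that reached 5 in at least 1 of them (y axis, genes), with red lines at 9 of the 10 genes; Nqo1 is not drawn. Slc7a11 lies at 3.26, while the other 8 lie between 0.42 and 0.99 around the all-gene median of 0.76.

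The sorted cells followed their labels in part. Ly6c2 lay between 9.65 and 10.56 in Ly6C high macrophages and was 6.16 and then 4.64 in Ly6C low macrophages. The neutrophil column had S100a9 at 15.49 and Cxcr2 at 12.37, but its Ly6g, the marker that defines neutrophils, was only 3.48. Macrophage markers were present in it too: of 14, 5 were at least 2-fold higher in Ly6C high macrophages of day 1 (Mrc1, Fcgr1, Cd163, Ccr2 and Ly6c2), 5 were higher in neutrophils (C1qa, C1qb, C1qc, Siglec1 and Cx3cr1), and 4 were neither, among them Csf1r (13.27 in neutrophils, 13.52 in the macrophages) and Emr1 (12.22 and 12.34). Markers of other cells were also present in the macrophage sorts: the summed level of 14 fibroblast markers was 9.53, 10.81 and 15.97 in Ly6C high macrophages on days 1, 2 and 4 and 8.46 and 13.99 in Ly6C low macrophages on days 2 and 4, and that of 14 endothelial markers was 12.74 in Ly6C high macrophages on day 4 against 9.22 to 10.33 in the other macrophage groups. The summed level of 10 plasmacytoid dendritic cell markers was 13.02 in that group and 11.42 to 12.06 in the others, and that of 12 muscle markers was 8.04 and 9.34 in Ly6C high and Ly6C low macrophages on day 4 and 4.73 to 5.63 in the earlier macrophage groups. In bulk RNA, fewer cells of a kind and less RNA per cell cannot be told apart.

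On day 1, Ly6C high macrophages were set against neutrophils. Slc7a11 was 2.83-fold lower in the macrophages (a log2 difference of -1.50) and Nqo1 9.76-fold lower (-3.29), while Srxn1 was 2.17-fold higher (1.12). So 2 of the 10 genes were at least 2-fold lower and 1 at least 2-fold higher, beside 16.1% and 16.6% of the 11890 genes compared, 32.7% in either direction. Nqo1 entered this comparison through neutrophils alone (6.42 against 3.13 in the macrophages), so the filter admitted it only by the group where it was high. The median difference of the 10 was -0.28 and that of all genes 0.08. With the columns rescaled by median ratios the Srxn1 difference was 0.97, under 2-fold, and the Sqstm1 difference turned from 0.08 to -0.07, since that rescaling lowers every difference of this comparison by the same amount. The remaining values were -0.79 for Gclm, -0.57 for Keap1, -0.50 for Nfe2l2, -0.06 for Prdx1, 0.40 for Gclc and 0.53 for Txnrd1. Among protein-coding genes alone, 38.2% of the genes counted were higher in macrophages, against 50.8% of all genes counted. The glutathione pair split between the cell types, Gclc being higher and Gclm lower in macrophages.

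The level of neutrophil markers also differed between these groups. Summed over 18 genes it was 17.51 in neutrophils, 15.63, 15.10 and 13.92 in Ly6C high macrophages on days 1, 2 and 4, and 14.17 and 13.18 in Ly6C low macrophages on days 2 and 4. Ly6g was listed at 0 in all 5 macrophage groups, and 1 to 4 of the 18 markers were at 0 in each of them. Much of the sum in macrophages came from Clec4e and Clec4d (14.87 and 13.46 in Ly6C high macrophages on day 1). The markers differed in how far they followed the order of Slc7a11. On day 2, S100a9 was at 7.36 in Ly6C high and 8.97 in Ly6C low macrophages, Cxcr2 at 4.64 and 5.46, and Mmp9 at 8.29 and 9.33, so higher in Ly6C low. Trem1, Lcn2, Clec4d and Clec4e were highest in neutrophils, and each step between days and subsets had the same direction as in Slc7a11. Trem1 was at 13.48 in neutrophils, 12.08, 11.30 and 9.01 in Ly6C high and 9.43 and 6.71 in Ly6C low. Lcn2 was at 10.67, then 7.69, 5.93 and 3.21, and 3.94 and 0.11, in the same order. From neutrophils to Ly6C high macrophages on day 1, 10 of 13 markers compared were at least 2-fold lower, with a median log2 difference of -2.77 and a range from -7.16 for Cxcr2 to -0.09 for Mmp8, where that of Slc7a11 was -1.50. The part of neutrophil RNA in the Slc7a11 values of macrophages was not tested.

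Within Ly6C high macrophages, the step from day 1 to day 2 was small over the whole table, and Slc7a11 was among the genes that differed most. It was 2.72-fold lower on day 2 (-1.44), a difference that 0.454% of the 11232 genes compared reached or passed downward. It was the only 1 of the 9 genes compared that was counted, beside 1.10% of all genes at least 2-fold lower and 1.41% higher (2.51% in all). Nfe2l2 (-0.37), Srxn1 (-0.34), Txnrd1 (-0.31) and Sqstm1 (-0.24) were lower by less, Prdx1 (0.30) and Keap1 (0.27) were higher, and Gclc (-0.08) and Gclm (-0.10) differed little. The median was -0.24 for the 9 genes and -0.01 for all genes. Of 12 neutrophil markers compared, 5 were at least 2-fold lower on day 2 and 0 higher.

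From day 2 to day 4 in Ly6C high macrophages, 0 of 9 genes were counted, beside 14.3% of all 12348 genes at least 2-fold higher and 2.00% lower, together 16.3%. Slc7a11 (-0.71) and Gclc (-0.38) were lower on day 4, while Sqstm1 (0.63), Gclm (0.42) and Keap1 (0.30) were higher. Nfe2l2, Txnrd1, Srxn1 and Prdx1 lay between 0.01 and 0.19. The genes counted over the whole table were mostly higher on day 4, 87.7% of them, or 62.0% after quantile normalization. At least 2-fold higher on day 4 were 13 of 14 fibroblast, 14 of 14 endothelial and 8 of 10 plasmacytoid dendritic cell markers. Of 11 neutrophil markers compared, 7 were lower and 1 higher. The part of these cells in the differences of the 9 genes was not tested.

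From day 1 to day 4 the difference of Slc7a11 was -2.15, 4.44-fold lower, which 0.686% of 12391 genes reached or passed downward. It was again the only 1 of 9 genes counted, beside 3.97% of all genes lower and 17.6% higher (21.6% in all). Keap1 (0.57), Sqstm1 (0.39), Gclm (0.32) and Prdx1 (0.31) were higher on day 4 and Gclc was lower (-0.46). Nfe2l2 (-0.18) and Txnrd1 (-0.17) turned to 0.15 and 0.13 after quantile normalization, so neither has a direction here, and Srxn1 went from -0.25 to -0.02. After that normalization 56.9% of all counted genes were higher on day 4, against 81.6% as deposited. Of 12 neutrophil markers compared, 9 were at least 2-fold lower on day 4.

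**Figure D3:**
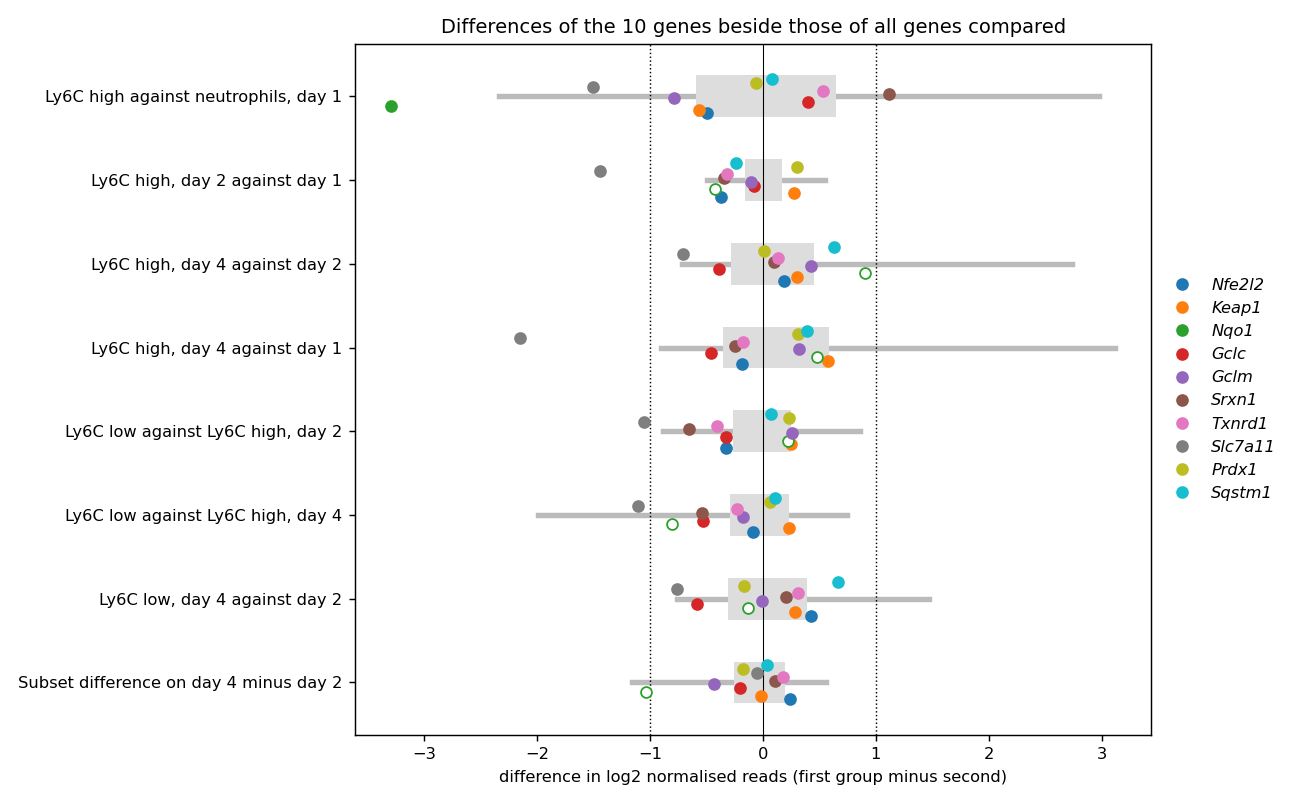
Difference in log2 normalised reads (x axis, first group minus second) in 8 comparisons (y axis); coloured points are the 10 genes, open where a gene is under the filter, grey boxes the middle 50% and grey lines the middle 90% of all genes compared, dotted lines 2-fold. Slc7a11 lies left of the -1 line in 5 of the 8 comparisons, at -2.15 between days 1 and 4, and Nqo1 is at -3.29 against neutrophils.

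The macrophage subsets were compared on the 2 days when both were sorted. On day 2, Slc7a11 was 2.08-fold lower in Ly6C low macrophages (-1.06), and Srxn1 (-0.65), Txnrd1 (-0.40), Gclc (-0.33) and Nfe2l2 (-0.32) were lower by less. Keap1 and Gclm (0.25 each), Prdx1 (0.24) and Sqstm1 (0.07) were higher. So 1 of 9 genes was counted, beside 4.03% of 11482 genes lower and 3.71% higher (7.74% in all), and after quantile normalization Slc7a11 stood at -0.96 and 0 were counted. The median of the 9 was -0.32 and that of all genes -0.03. Neutrophil markers differed in both directions here, with 3 of 12 lower, among them Lcn2, and 2 higher, S100a9 and Mmp9. Fibroblast markers were at least 2-fold lower in Ly6C low for 9 of 9 compared.

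On day 4 the difference of Slc7a11 was -1.11 (2.15-fold lower in Ly6C low). It was the only 1 of 9 genes counted, beside 8.93% of 12438 genes lower and 2.44% higher (11.4% in all), and 8.24% of genes were as low or lower. Srxn1 (-0.54), Gclc (-0.53), Txnrd1 (-0.23), Gclm (-0.18) and Nfe2l2 (-0.09) were also below Ly6C high, while Keap1 (0.23) and Prdx1 (0.06) were above. Sqstm1, at 0.11, turned to -0.04 after quantile normalization. The share of counted genes that were higher in Ly6C low was 21.4%, or 38.2% after that normalization. All 14 fibroblast markers and 13 of 14 endothelial markers were at least 2-fold lower in Ly6C low. Of 10 neutrophil markers compared, 5 were lower and 2 higher (Mmp8 and Mmp9), and 7 of 10 plasmacytoid dendritic cell markers were lower.

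Over both days, 5 genes were lower in Ly6C low each time (Nfe2l2, Gclc, Srxn1, Txnrd1 and Slc7a11), 3 were higher each time (Keap1, Prdx1 and Sqstm1), Sqstm1 with the exception just given, and Gclm split. Of all 12621 genes compared, 41.0% were lower on both days, 34.1% higher on both and 24.9% split, so counts of direction like these are common in the table. The change of the subset difference from day 2 to day 4 was at least 2-fold for 0 of 9 genes, beside 0.967% of all genes upward and 6.09% downward, 7.06% in all (the upward share of those counted was 13.7%, or 30.4% after quantile normalization). For Slc7a11 it was -0.05 (-0.21 after quantile normalization), and for Gclm, the lowest of the 9, -0.43 (-0.44). The other values lay between -0.20 and 0.24, and that normalization turned the sign for Nfe2l2 (0.24 to -0.02), Txnrd1 (0.18 to -0.02), Srxn1 (0.11 to -0.05), Sqstm1 (0.04 to -0.35) and Keap1 (-0.02 to 0.09).

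Within Ly6C low macrophages, 0 of 9 genes were 2-fold apart between days 2 and 4, beside 9.23% of 11824 genes higher on day 4 and 2.16% lower (11.4% in all; 81.1% of those counted were higher, 66.7% after quantile normalization). Sqstm1 (0.66), Nfe2l2 (0.43), Txnrd1 (0.31), Keap1 (0.29) and Srxn1 (0.21) were higher on day 4. Slc7a11 (-0.76), Gclc (-0.59) and Prdx1 (-0.17) were lower. Gclm, at -0.01, turned to 0.03 with median-ratio rescaling. At least 2-fold higher on day 4 were 7 of 7 muscle markers and 13 of 14 fibroblast markers compared, and 8 of 11 neutrophil markers were lower; their part in these differences was not tested. Slc7a11 and Gclc are the 2 members that were lower at each later day in both subsets and lower in Ly6C low on both days, a pattern picked out after the values were seen. It holds for 1615 genes, 12.8% of those compared, and 69 of these (0.547% of those compared) differed between Ly6C high on day 1 and Ly6C low on day 4 by at least as much as Slc7a11, which was 9.55-fold lower. Between the same groups Gclc (-0.99) and Srxn1 (-0.79) were lower, and Keap1 (0.80) and Sqstm1 (0.50) were higher.

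Slc7a11 is also a target of ATF4, the transcription factor that amino acid shortage and unfolded protein stress induce, and the list of that response was set beside it. Atf4 mRNA was at 11.72 in neutrophils, 12.29, 12.09 and 11.97 in Ly6C high macrophages on days 1, 2 and 4, and 11.83 and 11.71 in Ly6C low macrophages on days 2 and 4, a span of 0.58. Among macrophages, each of its steps between days and between subsets had the same direction as in Slc7a11, at a smaller size. Ddit4, which encodes an inhibitor of mTORC1, was at 6.77 in neutrophils, 8.64, 7.36 and 7.41 in Ly6C high and 6.22 and 6.0 in Ly6C low. It was the only gene of the list besides Slc7a11 that was at least 2-fold lower both on day 2 against day 1 (2 of 19 genes) and in Ly6C low on day 2 and on day 4 (2 of 19 each time). The list holds Slc7a11 itself, so in each of these counts Ddit4 is the only other gene. All genes gave 1.10%, 4.03% and 8.93% lower in these comparisons. With Slc7a11 set aside, the counts between subsets on both days are near the background. Unlike Slc7a11, Ddit4 was lower in neutrophils than in Ly6C high macrophages of day 1. Asns, asparagine synthetase, was at 8.25 in neutrophils and 6.63 to 5.35 in macrophages, and Chac1, which degrades glutathione, at 7.13 and 2.53 to 3.46. Atf3 went the other way, from 11.50 in Ly6C high macrophages on day 1 to 13.14 in Ly6C low macrophages on day 4. Between days 1 and 4 of Ly6C high, 3 of 19 genes of the list were at least 2-fold lower (Slc7a11, Slc7a1 and Ddit4) and 2 higher (Atf3 and Psph), beside 3.97% and 17.6% of all genes. Against neutrophils, 3 of 20 were higher in Ly6C high macrophages (Slc7a5, Ddit4 and Nupr1) and 3 lower (Asns, Chac1 and Slc7a11), beside 16.6% and 16.1% of all genes, so near the background.

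**Figure D4:**
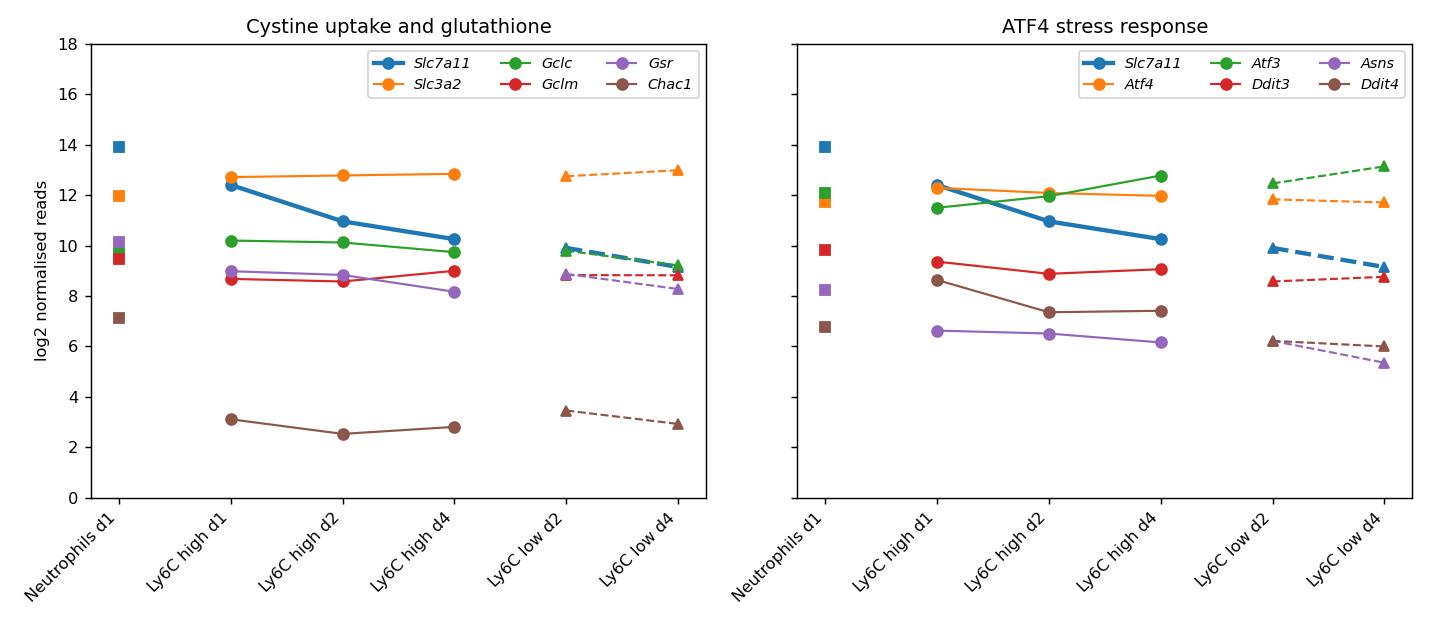
Log2 normalised reads (y axis) of Slc7a11 (thick blue) with 5 genes of cystine and glutathione handling (left) and 5 of the ATF4 response (right) by group (x axis); squares neutrophils, circles with solid lines Ly6C high, triangles with dashed lines Ly6C low macrophages, each the authors' group mean. Slc7a11 steps down from 12.41 to 10.26 in Ly6C high and lies at 9.91 and 9.15 in Ly6C low. Among macrophages Atf4 has the same direction at each step within a span of 0.58, and Slc3a2 spans 0.27.

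Other genes known as NRF2 targets gave no common direction against neutrophils or between days, while between subsets most were somewhat higher in Ly6C low as deposited. Of the 46 on the list, 34 or 35 were compared. Against neutrophils, 3 were at least 2-fold higher in Ly6C high macrophages (Ftl1, Gstp1 and Htatip2) and 7 lower (Fth1, Gsr, Gstm1, Mgst3, Ephx1, Osgin1 and Tnfaip2), beside 16.6% and 16.1% of all genes, with a median of -0.40. The ferritin chains split: Ftl1, the light chain, was at 13.08 in neutrophils and 15.26 to 15.69 in macrophages, while Fth1, the heavy chain, was at 17.00 and 15.43 to 16.00. Hmox1, heme oxygenase 1, was at 13.02 in neutrophils, 13.76, 13.30 and 13.86 in Ly6C high macrophages on days 1, 2 and 4, and 13.75 and 13.77 in Ly6C low macrophages, 0.56 apart among macrophages. From day 1 to day 4 of Ly6C high, 7 of 35 were at least 2-fold higher (Gstm5, Mgst1, Mgst3, Cat, Ephx1, Cbr1 and Osgin1) and 3 lower (Abcc1, Abcc4 and Cd36), beside 17.6% and 3.97% of all genes, so the share higher is near the background. Ephx1, microsomal epoxide hydrolase, had the widest span of the list, with 5.41 in neutrophils, 3.59, 5.51 and 9.02 in Ly6C high and 5.93 and 9.57 in Ly6C low. Osgin1 (8.92, then 6.36, 6.74 and 8.10, and 6.70 and 8.19, in the same order) and Gstm5 (4.60, then 3.48, 3.77 and 5.94, and 4.86 and 5.61) were likewise higher in both day 4 groups than on day 2. Between subsets, 1 of 34 was counted on day 2 (Mgst3, higher in Ly6C low) and 0 of 35 on day 4, beside 7.74% and 11.4% of all genes. Medians were 0.19 and 0.21 in favour of Ly6C low, where the median of the 9 members was -0.32 and -0.18. By any amount, 24 of 34 were higher in Ly6C low on day 2 and 24 of 35 on day 4, beside 47.4% and 47.2% of all genes. Whether these small list differences keep their direction under other scalings of the columns was not checked. Between days 1 and 2 of Ly6C high 1 of 34 was at least 2-fold higher (Ephx1), between days 2 and 4 of Ly6C high 4 of 35 (Gstm5, Mgst1, Ephx1 and Osgin1), and between days 2 and 4 of Ly6C low 3 of 35 (Mgst1, Ephx1 and Osgin1), with 0 lower in these 3 comparisons. All genes gave 1.41%, 14.3% and 9.23% higher there. The subset difference changed 2-fold for 1 of 35 (Gstm5, downward), beside 6.09% of all genes.

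**Figure D5:**
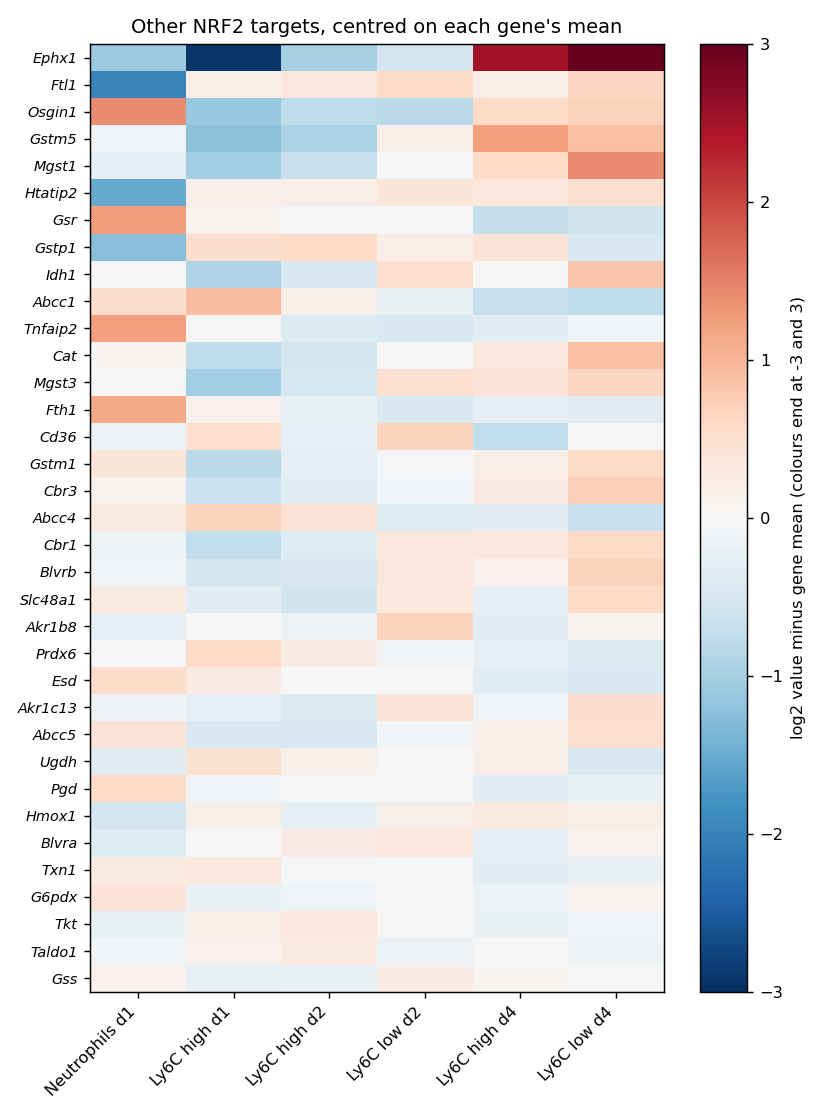
Heat map of 35 other NRF2 targets (rows, ordered by their span over the 6 groups) in the 6 groups (columns), coloured by log2 value minus the gene's mean, red above and blue below, colours ending at -3 and 3. Ephx1, at the top, runs from 3.59 in Ly6C high macrophages on day 1 to 9.57 in Ly6C low macrophages on day 4, and most rows change far less.

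Among the genes that govern or partner NRF2, Nfe2l1, its relative in proteasome control, spanned 0.30 over the 6 groups (10.42 to 10.72). Bach1, a repressor that competes for the same elements, was at 11.43 in neutrophils, 11.74, 11.68 and 12.22 in Ly6C high macrophages on days 1, 2 and 4, and 11.34 and 12.33 in Ly6C low macrophages on days 2 and 4, so both day 4 groups were highest. Bach2, a related repressor, was lowest in neutrophils (5.04) and at 6.02 to 7.59 in macrophages. Nfe2 (6.86 in neutrophils, 2.55 to 3.98 in macrophages) and Nfe2l3 (5.57 and 0.45 to 2.76), relatives of Nfe2l2, were under the filter in all macrophage groups. Sesn1, a stress-induced regulator of mTORC1, was at 7.91 in neutrophils, 7.08, 7.78 and 8.42 in Ly6C high and 8.59 and 9.54 in Ly6C low. Of the 20 genes, 1 was at least 2-fold higher (Bach2) and 5 lower (Maff, Nfe2, Nfe2l3, Palb2 and Ep300) in Ly6C high macrophages against neutrophils, beside 16.6% and 16.1% of all genes. Between days 1 and 4 of Ly6C high 2 of 17 were higher (Btrc and Sesn1), beside 17.6% of all genes. In Ly6C low against Ly6C high 1 of 18 was higher on day 2 (Palb2) and 1 of 18 on day 4 (Sesn1), beside 3.71% and 2.44%. In these comparisons with day 1 and between subsets 0 were lower, beside 3.97%, 4.03% and 8.93%. In Ly6C low, 2 of 18 were higher on day 4 than on day 2 (Bach2 and Chd6), beside 9.23%. The subset difference changed for 1 of 18 (Palb2, downward), beside 6.09%. The 2 remaining steps within Ly6C high gave 0 of 17, beside 2.51% and 16.3% in either direction.

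The rest of the glutathione and thioredoxin systems was compared in the same way. Of the glutathione list of 31, which holds Slc7a11, Gclc and Gclm too, 3 of 23 compared were at least 2-fold higher (Glrx, Glo1 and Gstp1) and 7 lower in Ly6C high macrophages against neutrophils, beside 16.6% and 16.1% of all genes. Gpx1, the main cytosolic glutathione peroxidase, was at 12.09 in neutrophils and 12.47 to 13.05 in macrophages, and Gpx4, which reduces lipid peroxides, at 7.82 and 8.29 to 9.02. Both were lowest in neutrophils. From day 1 to day 4 of Ly6C high, 10 of 26 were at least 2-fold higher and 2 lower (Glrx and Slc7a11), beside 17.6% and 3.97% of all genes. Of the 10, Ggt5, Gpx7, Gpx8, Oplah, Gstt1 and Gstk1 reached a log2 value of 5 on day 4 only. The filter thus admitted them only through the group where they were high. Between days 1 and 4 of Ly6C high, Gpx3 (5.49 and 9.99) differed by 4.51 and Gpx8 by 4.47. Over all 6 groups Gpx8 had the widest span of the list. It was listed at 0 in neutrophils and in Ly6C low macrophages on day 2. Ly6C high macrophages had 2.53, 2.19 and 7.0 on days 1, 2 and 4, and Ly6C low macrophages 4.75 on day 4. Gpx7 (2.28 in neutrophils, 4.06, 4.40 and 7.25 in Ly6C high, 4.51 and 5.77 in Ly6C low) was likewise highest in Ly6C high macrophages on day 4. In that group the summed fibroblast markers were also highest (15.97), and their part in these values was not tested. Between days 2 and 4 the counts were 8 higher and 1 lower of 26 in Ly6C high, beside 14.3% and 2.00% of all genes, and 5 higher and 1 lower of 23 in Ly6C low, beside 9.23% and 2.16%. The genes named above as reaching 5 on day 4 only did so here too in Ly6C high, as did Ggt5 and Gpx7 in Ly6C low. Between days 1 and 2 of Ly6C high only Slc7a11 of 20 was counted, beside 2.51% of all genes in either direction. Between subsets, 1 of 21 was higher and 1 lower on day 2 (Mgst3 and Slc7a11), beside 3.71% and 4.03%. On day 4, 4 of 26 were lower in Ly6C low (Gpx7, Gpx8, Slc7a11 and Gstt1), beside 8.93%. The subset difference changed for 2 of 26 (Gpx7 and Gstt1, downward), beside 6.09%.

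Of 18 thioredoxin and peroxiredoxin genes, Srxn1 was the only 1 of 17 at least 2-fold higher in Ly6C high macrophages than in neutrophils, and Txnip, Msrb1 and Msrb2 were lower. All genes gave 16.6% higher and 16.1% lower. Txnip, which binds and inhibits thioredoxin, was at 13.40 in neutrophils and 10.05 to 11.01 in macrophages. Txn1, cytosolic thioredoxin, spanned 0.63 (10.88 to 11.52). Among the peroxiredoxins, Prdx4 of the endoplasmic reticulum had the widest span, at 8.17 in neutrophils, 7.77, 8.08 and 9.34 in Ly6C high macrophages on days 1, 2 and 4, and 8.84 and 9.51 in Ly6C low macrophages. Prdx2 spanned 1.17 (8.78 to 9.94) and Prdx3 0.86 (8.36 to 9.22), both lowest in neutrophils, and Prdx5 spanned 1.02 (10.42 to 11.44) and Prdx6 1.03 (9.76 to 10.79), both highest in Ly6C high macrophages on day 1 and lowest in Ly6C low macrophages on day 4. Msrb3, a methionine sulfoxide reductase, was at 7.28 in Ly6C high macrophages on day 4 and 1.99 to 4.48 elsewhere. It was highest in the macrophage group with the highest sum of fibroblast markers (15.97) and lowest in the one with the lowest (8.46), and their part in it was not tested. At least 2-fold higher were 2 of 18 from day 2 to day 4 of Ly6C high (Prdx4 and Msrb3) and 3 of 18 from day 1 to day 4 (with Msrb2), beside 14.3% and 17.6% of all genes. Msrb3 was the 1 of 18 lower in Ly6C low on day 4, beside 8.93% of all genes. The other 4 comparisons gave 0, beside 2.51% to 11.4% of all genes in either direction.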

How the data were processed

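RNA from 17 samples in 6 groups, taken from the labels, was used as the authors deposited it: 1 table of log2 normalised reads with 1 column per group, read as the mean of the samples' log2 values, a reading the low values bear out. The submitters' processing notes name mm10, TopHat2 2.0.7 and Cufflinks 2.0.2 without saying what each did. Not given in the sources used here are annotation, normalization method and use of strand. The labels' protocols give poly-A selection and a TruSeq kit. Low values fell on multiples of what 1 read is worth (0.412 to 1.03 units per library, relative tolerance 1e-05), from which counting errors were computed. In 1 neutrophil library 727 low genes lay at even and 127 at odd read numbers, so its reads may be counted in pairs, and its read worth was doubled for the counting error. The search for these steps and the counts were tested on simulated data.

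Differences of log2 values were computed on all 38087 genes with pandas 2.3.3 and numpy 2.4.6. A gene entered a comparison if it reached a log2 value of 5 in a group and was counted at 2-fold; there was no pseudocount and no test. There were 7 comparisons of pairs of groups and 1 of the subset difference between days. Alternatives were a pseudocount of 5, no filter, a filter of 7, a fold of 1.5, median-ratio rescaling, quantile normalization, protein-coding genes alone and, for likeness, Pearson correlation. Named were all 10 members, the 4 genes of each list with the widest range, a few anchor genes whatever their values, genes in counts of a list, and the 3 genes most like each member with a range of at least 1. The members and lists were chosen with earlier results of these data known. Coordinates and exon lengths are from GENCODE M21 on GRCm38, the assembly of mm10, in which 95.3% of the gene identifiers were found. No column of per-sample values was left unused (0 columns).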

Additional observations from a re-analysis of the deposited data

How the results depend on the processing

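No paired analysis was possible because the columns are group means and carry no replicate numbers, and for the same reason no replicate could be left out. Of the 80 differences of the 10 genes, 77 moved by less than 1.5-fold under quantile normalization and the other 3, all of Nqo1, by more; under the other settings 0 moved that far. Counts of members changed as follows. Between days 2 and 4 of Ly6C high, 2 genes (Slc7a11 and Sqstm1) were counted at 1.5-fold against 0 at 2-fold; between days 2 and 4 of Ly6C low, 3 (Slc7a11, Gclc and Sqstm1) against 0; between subsets on day 2, 2 (Slc7a11 and Srxn1) against 1, and 0 after quantile normalization, where Slc7a11 stood at -0.96. Without a filter the subset difference changed for 1 gene (Nqo1, -1.03) against 0. Srxn1 against neutrophils fell under 2-fold with median-ratio rescaling (0.97). Quantile normalization turned the sign for Nqo1 between days 1 and 4 (0.48 to -0.75) and days 2 and 4 (0.90 to -0.24) of Ly6C high. Its other turns of sign, and those under median-ratio rescaling, stand beside the values they concern.

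Counts over all genes moved by more than 1.5 times under 3 settings, given in the order 1.5-fold, filter of 7 and no filter, by construction of those settings. For Ly6C high against neutrophils they were 6220, 2556 and 8154 against 3886; for day 2 against day 1 of Ly6C high 891, 136 and 1024 against 282; for day 4 against day 2 of Ly6C high 3629, 1019 and 4542 against 2008; for day 4 against day 1 of Ly6C high 4601, 1471 and 5398 against 2674. For Ly6C low against Ly6C high they were 2208, 448 and 2244 against 889 on day 2, and 2639, 723 and 3263 against 1414 on day 4; for day 4 against day 2 of Ly6C low 3325, 750 and 3235 against 1346; and for the subset difference 2015, 342 and 2826 against 891. Depth limits Nqo1 in macrophages, at 10.2 to 24.5 reads a library.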

Other observations

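The superoxide dismutases and catalase differed among themselves. Sod2, the mitochondrial superoxide dismutase and an inflammatory target gene, was at 12.29 in neutrophils, 12.34, 11.47 and 10.88 in Ly6C high macrophages on days 1, 2 and 4, and 11.05 and 10.25 in Ly6C low macrophages on days 2 and 4, while cytosolic Sod1 spanned 0.68. Cat, catalase, ran the other way among macrophages, from 8.83 in Ly6C high on day 1 to 10.51 in Ly6C low on day 4. Sod3, the secreted enzyme, was at 8.77 in Ly6C high macrophages on day 4 and 6.22 in Ly6C low on day 4, against 1.28 to 4.59 elsewhere, and summed fibroblast markers were also highest in those 2 groups (15.97 and 13.99); their part was not tested. In the list of 14 genes of NADPH supply, 11 were compared. Pgls was the only 1 at least 2-fold higher in Ly6C high macrophages than in neutrophils and 0 were lower, beside 16.6% and 16.1% of all genes. In the other 7 comparisons 0 of the 11 were counted, beside 2.51% to 21.6% of all genes in either direction. Among the genes of that list that reached a log2 value of 5, Idh1 had the widest range, from 9.29 in Ly6C high macrophages on day 1 to 11.01 in Ly6C low macrophages on day 4.

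Sqstm1 belongs to a list of 22 autophagy genes, of which 0 were at least 2-fold lower in any of the 6 comparisons among macrophage groups or in the subset difference. Gpnmb was at 12.15 in neutrophils, 8.21, 10.51 and 10.60 in Ly6C high macrophages on days 1, 2 and 4, and 10.91 and 11.67 in Ly6C low macrophages on days 2 and 4. Calcoco1 (8.09, then 6.65, 7.16 and 8.80, and 7.68 and 9.15, in the same order) and Ncoa4, the ferritin receptor of autophagy (8.32, then 9.25, 9.29 and 9.77, and 9.62 and 10.55), were highest in Ly6C low macrophages on day 4 among the macrophage groups. Optn was at 10.77 in neutrophils and 7.01 to 8.48 in macrophages. At least 2-fold higher were 5 of 22 from day 1 to day 4 of Ly6C high (Calcoco1, Map1lc3a, Wipi1, Tfeb and Gpnmb), 3 from day 2 to day 4 in each subset, 1 from day 1 to day 2 and 1 in Ly6C low on day 4 (Gpnmb both times). All genes gave 17.6% higher from day 1 to day 4 of Ly6C high, 14.3% and 9.23% from day 2 to day 4 in Ly6C high and Ly6C low, and 1.10 to 8.93% lower in the 6 comparisons, so the counts of higher genes are near the background. Against neutrophils, 5 were lower in Ly6C high macrophages and 0 higher, beside 16.1% and 16.6% of all genes.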
